A study of Mus musculus with 9 samples.

Results

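The CD28 and PD-1 families of receptors and ligands were followed in regulatory T (Treg) cells that lacked the Hippo kinases Mst1 and Mst2. The set held 7 genes of the 22180 genes measured: the costimulatory receptors Cd28 and Icos, the inhibitory receptors Ctla4, Pdcd1 (PD-1) and Btla, and the PD-1 ligands Cd274 (PD-L1) and Pdcd1lg2 (PD-L2). A probe set belonged to the set when its annotated symbol was exactly 1 of these names. Each of the 7 genes had 1 probe set, so none had to be chosen among several.

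Expression was measured on 9 arrays, 4 of Mst1/Mst2-null and 5 of wild-type Treg cells. Null cells came from Foxp3YFP-Cre Stk4 f/f Stk3 f/f donors, in which Cre expressed from the Foxp3 locus acts on loxP-flanked alleles of Stk4 (Mst1) and Stk3 (Mst2). Wild-type cells came from Foxp3YFP-Cre donors, which carried the same Cre and YFP but no flanked kinase allele. Strain was given as C57BL/6 for both genotypes, and no age was given. Donor marrow (CD45.2+) was mixed 1:1 with wild-type CD45.1 marrow and given to RAG1-/- mice, which make no T or B cells of their own, and CD45.2+ CD4+ YFP+ cells were sorted 2 months later. Each array therefore reports Treg cells that had developed beside wild-type Treg cells in the same host. The labels do not say that each sample came from its own chimera, and p-values therefore reflect only the variation among these 9 samples, which may be technical. The labels also number the samples serially, with every wild-type number before every null one, and do not say what the numbers mark.

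T cells need a signal through CD28 or a relative beside the antigen signal. CD28 binds CD80 and CD86 and recruits phosphoinositide 3-kinase and adaptors. ICOS binds ICOS ligand and favours effector and follicular T cells. CTLA-4 competes with CD28 for CD80 and CD86 and is a main means by which Treg cells restrain dendritic cells, while PD-1 and BTLA carry tyrosine motifs that bring phosphatases to the receptor. In mice, effector Treg cells are known for high ICOS, and PD-1 marks effector and follicular regulatory T cells.

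Array values were log2 RMA values, in which 1 unit is a doubling of signal, and every difference is null minus wild type. Foxp3, which defines the sorted cells, was 10.72 ± 0.092 (SD, n = 4) in null and 10.70 ± 0.049 (SD, n = 5) in wild-type samples. Stk4 was 7.64 ± 0.15 (SD, n = 4) in null and 7.91 ± 0.10 (SD, n = 5) in wild-type samples, a difference that did not pass (limma adjusted p = 0.146). Where its probes lie relative to the flanked exons was not examined, so the deletion was not checked, and Stk3, which was not the single symbol of any probe set, was not analysed here. The mean over 6 Treg and CD4 T cell markers was 9.90 to 10.1 in null and 10.21 to 10.33 in wild-type arrays. Of these markers 1, Ikzf2 (Helios), fell by 0.72 log2 units (limma adjusted p = 0.033), while 1.89% of all genes fell by the same test. Null arrays were less alike, with a mean correlation across genes to the rest of their group between 0.987 and 0.989, against 0.993 to 0.994 in wild type. Arrays of both genotypes also differed in the heat shock genes Hspa1a and Hspa1b, whose mean was 3.70 in null array 1 and 8.56 to 10.1 in the other null arrays, against 3.06 to 10.2 in wild-type arrays.

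Within the families, Icos was lower and Btla was higher in null Treg cells. Pdcd1 and Cd274 had larger negative differences that did not pass, and Cd28, Ctla4 and Pdcd1lg2 differed by less than 0.20 log2 units. With limma p-values adjusted by the Benjamini-Hochberg method over the 22180 genes, and 0.05 as the limit, 1 gene rose, 1 fell and 5 did not pass. Across all genes 2.32% passed, 0.428% higher and 1.89% lower in null samples. The groups did not overlap for 3 of the 7 (Icos, Pdcd1 and Btla), against 6.16% of all genes. Null values lay below for 2 of them, as in 4.4% of all genes, and above for 1, as in 1.76%. Before adjustment 4 of the 7 had a limma p under 0.05, as had 14.9% of all genes. The median difference of the 7 was -0.20, beside 0.0023 over all genes. All 7 had a mean above 4.04, the median of all probe set values, with Pdcd1lg2 the nearest to it.

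**Figure D1:**
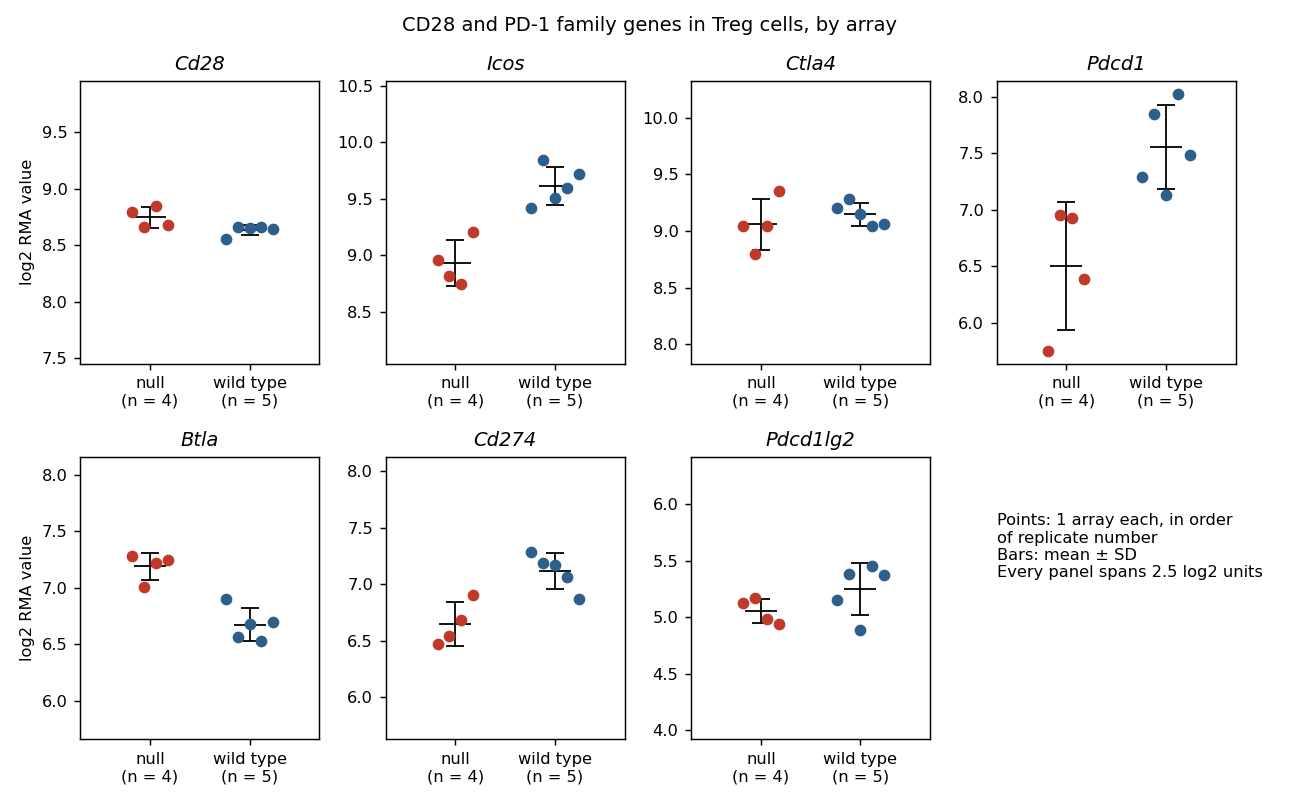
Log2 RMA value of each family gene (vertical axis) in null and wild-type Treg cells, with 1 point per array and bars for mean ± SD; every panel spans the same number of log2 units. Null points lie wholly below wild-type points for Icos and Pdcd1 and wholly above them for Btla, while Cd28, Ctla4, Cd274 and Pdcd1lg2 touch or overlap.

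Among the costimulatory receptors, Cd28 was nearly level. It read 8.79, 8.66, 8.85 and 8.68 in null arrays 1 to 4, against 8.55, 8.66, 8.65, 8.66 and 8.64 in wild-type arrays 1 to 5. The lowest null value equalled the highest wild-type value. The difference of 0.11 (95% interval from -0.025 to 0.25) did not pass (limma adjusted p = 0.453). Without null arrays 2 and 4 it was 0.19 (limma adjusted p = 0.182), and with the myeloid marker mean as a covariate 0.22 (limma adjusted p = 0.365).

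Icos, whose product is the receptor for ICOS ligand, was lower in every null array. It read 8.96, 8.82, 8.74 and 9.21 in null arrays 1 to 4, against 9.42, 9.84, 9.50, 9.59 and 9.72 in wild-type arrays 1 to 5. Null array 4 was the highest of its group and still 0.21 below wild-type array 1, the lowest of the other group. The means were 8.93 ± 0.20 (SD, n = 4) in null and 9.61 ± 0.17 (SD, n = 5) in wild-type samples. Icos thus fell by 0.68 ± 0.11 (SE) on the log2 scale, a 1.60-fold lower signal (95% interval from -0.93 to -0.43, limma adjusted p = 0.0131), and 0.83% of all genes had a smaller p. In sorted bulk cells, fewer Icos-high cells and less Icos RNA per cell cannot be told apart.

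Of 6 markers of follicular T cells, among which ICOS is known to be high, 3 fell, against 1.89% of all genes, and 5 had negative differences. Their mean level lay between 5.95 and 6.18 in null arrays, against 6.41 to 6.92 in wild-type arrays, without overlap. Among single genes, 6.16% did not overlap. Cxcr5, the chemokine receptor of B cell follicles, fell to 7.56 ± 0.32 (SD, n = 4) in null samples, against 8.35 ± 0.25 (SD, n = 5) in wild type (limma adjusted p = 0.0338). Sh2d1a, also counted in the inhibitory signalling list, and Tox2 fell as well, while Bcl6 (-0.57), Ascl2 (-0.31) and Il21 (0.11) did not pass. Their part in the Icos difference was not tested. Icos passed without null arrays 2 and 4 (difference -0.76, limma adjusted p = 0.0202) and without any 1 array (highest limma adjusted p = 0.0418). It did not pass with the mean of myeloid markers as a covariate (difference -0.91, limma adjusted p = 0.064). That marker mean itself did not overlap between genotypes, at 4.35 to 4.59 in null and 4.16 to 4.30 in wild-type arrays.

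**Figure D2:**
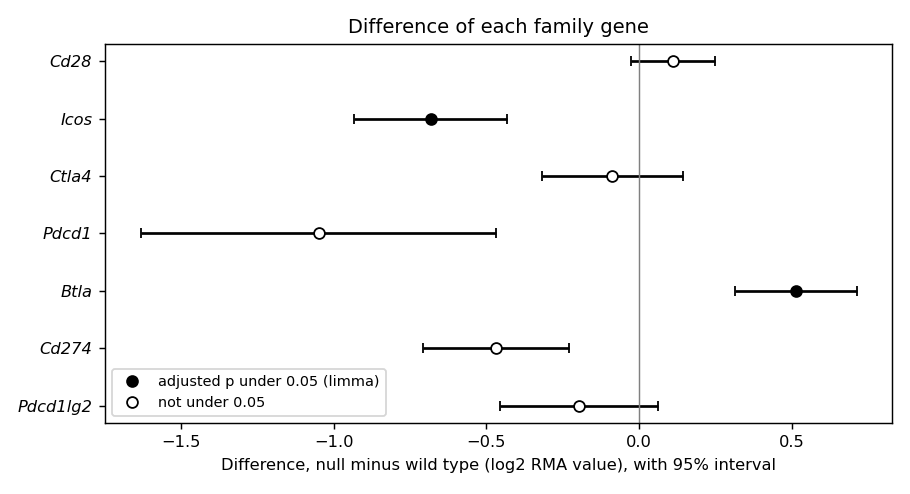
Difference in log2 RMA value (horizontal axis, null minus wild type) for each family gene, with its 95% interval from limma; filled points passed at an adjusted p under 0.05. Icos and Btla are filled on opposite sides of 0, Pdcd1 has the widest interval (from -1.63 to -0.47), and the intervals of Cd28, Ctla4 and Pdcd1lg2 include 0.

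Ctla4, the inhibitory receptor that Treg cells express constitutively under Foxp3, overlapped fully. It read 9.04, 8.80, 9.05 and 9.35 in null arrays 1 to 4, against 9.20, 9.28, 9.15, 9.04 and 9.06 in wild-type arrays 1 to 5. Null arrays held both the lowest and the highest of the 9 values. The difference of -0.088 (95% interval from -0.32 to 0.14) did not pass (limma adjusted p = 0.77). It was -0.19 with the B cell marker covariate (limma adjusted p = 0.452) and -0.39, outside that interval, with the myeloid marker covariate (limma adjusted p = 0.267).

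Cd28, Ctla4 and Icos lie next to each other on mouse chromosome 1, and change was unequal among these neighbours. Within arrays, the log2 value of Icos relative to Cd28 was lower by 0.79 in null than in wild-type samples, with no overlap between groups. The exact two-sided permutation p was 0.00794 over 126 splits, the smallest they allow. That separation had to follow, because all null Icos values lay below wild type and no null Cd28 value did. Its p-values, before and after adjustment, add no evidence beyond the values of each gene. Relative to Ctla4, Icos was lower by 0.59, again with no overlap (exact permutation p = 0.00794). Ctla4 relative to Cd28 differed by -0.20 (exact permutation p = 0.167). Of 5 such comparisons, both involving Icos had an adjusted p of 0.0132 (exact permutation, Benjamini-Hochberg over the 5), and that of Ctla4 with Cd28 was 0.208. Without null array 4 the last difference was -0.32 (exact permutation p = 0.0179).

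The genes on the outer sides of this cluster were read as well. Raph1, beside Cd28, had a difference of -0.20 (limma adjusted p = 0.494), and Abi2, a regulator of actin assembly beyond it, fell by 0.41 log2 units (limma adjusted p = 0.0283). On the far side of Icos, 9530026F06Rik differed by 0.016 (limma adjusted p = 0.951), and Pard3b was dim, with a mean of 3.03.

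Pdcd1, which encodes PD-1, had the largest difference of the 7 genes and the widest spread. It read 5.75, 6.96, 6.92 and 6.39 in null arrays 1 to 4, against 7.29, 7.85, 7.13, 8.02 and 7.48 in wild-type arrays 1 to 5. All null values lay below all wild-type values, and null array 1 stood below the other null arrays. The means were 6.51 ± 0.57 (SD, n = 4) in null and 7.55 ± 0.38 (SD, n = 5) in wild-type samples. The difference of -1.05 ± 0.26 (SE; 95% interval from -1.63 to -0.47) corresponds to a 2.07-fold lower signal and did not pass over all genes (limma adjusted p = 0.0748, unadjusted p = 0.00237). It passed when genes below the median of all probe sets were left out (limma adjusted p = 0.0426), a setting in which fewer genes are tested. Without null arrays 2 and 4 the difference was -1.22 (limma adjusted p = 0.106), and without null array 1 it was -0.80 (0.1335). It was -0.81 with the B cell marker mean as a covariate (limma adjusted p = 0.209) and -0.93 with the myeloid one (0.419). The mean of the follicular markers was lower in the same null arrays, and the part of those markers in the Pdcd1 difference was not tested. Beside Pdcd1 on chromosome 1, Neu4 (0.096) and 4930440C22Rik (0.080) had small differences that did not pass. Fam174a, 1 gene further, fell by 0.53 log2 units (limma adjusted p = 0.0181).

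Btla, an inhibitory receptor of resting B and T cells that binds the TNF receptor family member HVEM, was higher in every null array. It read 7.28, 7.01, 7.22 and 7.24 in null arrays 1 to 4, against 6.90, 6.57, 6.68, 6.53 and 6.70 in wild-type arrays 1 to 5. The gap between the lowest null and the highest wild-type value was 0.11. The means were 7.19 ± 0.12 (SD, n = 4) in null and 6.68 ± 0.14 (SD, n = 5) in wild-type samples. Btla rose by 0.51 ± 0.089 (SE; 95% interval from 0.32 to 0.71), a 1.43-fold higher signal (limma adjusted p = 0.0166), and 0.99% of all genes had a smaller p. Its neighbours on chromosome 16, Atg3 (0.14) and Cd200 (-0.24), had differences that did not pass.

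Markers of B cells, which carry BTLA themselves, were read beside it. All 7 measured B cell markers had positive differences (median 0.25), and 0 passed over all genes by limma. An unadjusted limma p under 0.05 was found for 1 of the 7 markers and 14.9% of all genes. The mean level of the B cell markers overlapped, at 4.55 to 5.18 in null and 4.26 to 5.00 in wild-type arrays. The highest value of each group was in null array 4 and wild-type array 1. Wild-type array 1 also had the highest Btla of its group, whereas null array 4 did not. The part of B cells in the Btla difference was not tested. Ms4a1 averaged 4.83 ± 0.40 (SD, n = 4) in null and 4.39 ± 0.52 (SD, n = 5) in wild-type samples, near the median of all probe sets. Cd79a (5.94 in null and 5.32 in wild-type samples) and Cd79b (6.61 and 6.59) lay further above that median. Of the 7 markers, 2 had a mean below it. With the B cell marker mean as a covariate the Btla difference was 0.43 (limma adjusted p = 0.0641), and with the myeloid marker mean 0.41 (limma adjusted p = 0.289). Markers of naive CD4 T cells did not overlap between genotypes either, with mean levels over 4 genes of 8.80 to 8.91 in null and 8.38 to 8.61 in wild-type arrays. Of these, 3 had positive differences and 0 passed by limma, with 3 at an unadjusted p under 0.05, against 14.9% of all genes. The part of the naive markers in the Btla difference was not tested. Btla did not pass without null array 1 (difference 0.48, limma adjusted p = 0.0554) and did so without null arrays 2 and 4 (difference 0.58, limma adjusted p = 0.0294).

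**Figure D3:**
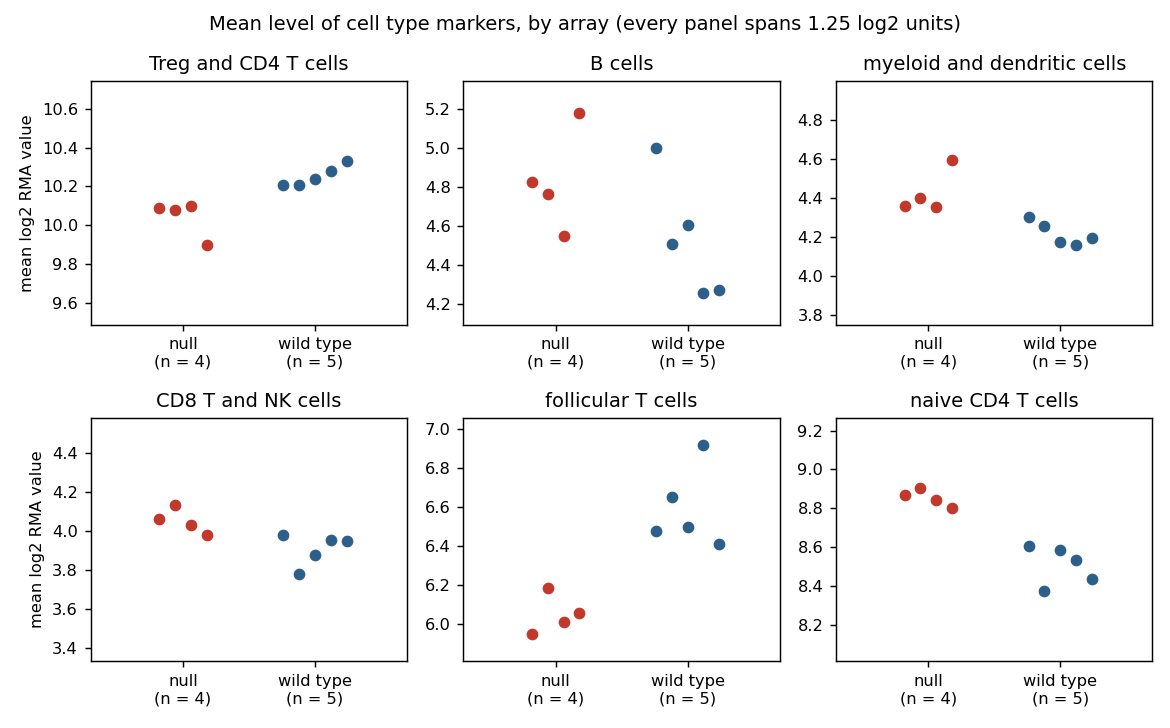
Mean log2 RMA value over the measured markers of 6 cell types or states (vertical axis), with 1 point per null or wild-type array. Follicular T cell markers lie lower and naive CD4 T cell markers higher in all null arrays (8.80 to 8.91 against 8.38 to 8.61 for the naive list), and B cell markers overlap.

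Pdcd1 and Btla thus differed in opposite directions. Within arrays, Pdcd1 relative to Btla was lower by 1.56 in null than in wild-type samples, with no overlap between groups. The exact permutation p was 0.00794 (0.0132 after adjustment over the 5 comparisons). That separation had to follow, because null values lay wholly below wild type for Pdcd1 and wholly above it for Btla. It adds no evidence beyond the values of each gene. The stretch upstream of each transcript start is given here because these receptors, with Cd274, had the differences furthest from 0 among the members for which RefSeq sequence was at hand (5 of 7 members matched, build GRCm38.p6). The array measures RNA, so the sequence is context and no binding was measured. Shown are 250 bases before the start, for Pdcd1 at chr1:94052554-94052803 on the minus strand, for Btla at chr16:45224087-45224336 on the plus strand and for Cd274 at chr19:29367188-29367437 on the plus strand, with every match to the NFAT core GGAAA on either strand in capitals. The transcript starts behind the Btla and Cd274 windows lie inside the annotated gene spans, whose 5′ ends are further upstream, whereas the Pdcd1 window adjoins the end of its gene.
Pdcd1: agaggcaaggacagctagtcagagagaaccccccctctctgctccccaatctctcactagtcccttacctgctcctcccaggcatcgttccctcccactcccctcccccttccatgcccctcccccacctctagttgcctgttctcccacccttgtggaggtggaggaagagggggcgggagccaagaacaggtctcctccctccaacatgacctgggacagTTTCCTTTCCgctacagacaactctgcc
Btla: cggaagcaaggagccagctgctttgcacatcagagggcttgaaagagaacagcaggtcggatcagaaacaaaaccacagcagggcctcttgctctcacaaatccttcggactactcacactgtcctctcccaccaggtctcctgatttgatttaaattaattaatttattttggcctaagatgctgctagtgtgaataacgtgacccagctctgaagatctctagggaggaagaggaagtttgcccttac
Cd274: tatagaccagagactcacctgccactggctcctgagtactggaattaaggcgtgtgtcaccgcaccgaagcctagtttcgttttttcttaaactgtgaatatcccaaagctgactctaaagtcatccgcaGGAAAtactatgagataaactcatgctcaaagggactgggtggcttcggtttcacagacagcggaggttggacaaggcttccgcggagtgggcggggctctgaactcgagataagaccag

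These windows were searched on both strands for GGAAA, for the AP-1 motif TGANTCA and for the STAT motif TTCNNNGAA. Pdcd1 held 2 matches to GGAAA, side by side and on the strand opposite to the gene, Cd274 held 1 and Btla held 0, while Ctla4 and Pdcd1lg2, not printed, held 1 each. Of 32851 promoter windows of the same length in RefSeq, 55.6% held GGAAA, 6.75% the AP-1 motif and 7.02% the STAT motif, and none of the 5 member windows held either of the last pair.

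Of the ligands, Cd274 was lower in null samples by a margin that straddled the threshold. It read 6.47, 6.54, 6.68 and 6.90 in null arrays 1 to 4, against 7.28, 7.19, 7.17, 7.07 and 6.87 in wild-type arrays 1 to 5. Only null array 4 and wild-type array 5 overlapped, by 0.034. The means were 6.65 ± 0.19 (SD, n = 4) in null and 7.11 ± 0.16 (SD, n = 5) in wild-type samples. The difference of -0.47 ± 0.11 (SE; 95% interval from -0.71 to -0.23) did not pass (limma adjusted p = 0.0548). It passed without null array 4 (difference -0.55, limma adjusted p = 0.0247) and without wild-type array 5 (difference -0.53, limma adjusted p = 0.0413). These were the overlapping arrays, so leaving out either had to enlarge the difference. It also passed without dim genes (limma adjusted p = 0.0339) and with the B cell marker mean as a covariate (difference -0.60, limma adjusted p = 0.0279). Cd274 did not pass in the 9 remaining settings, among them median centring (limma adjusted p = 0.0823) and quantile normalisation (0.0976). Nor did it pass without any other single array (highest limma adjusted p = 0.137). With the myeloid marker mean as a covariate the difference was -0.77 (limma adjusted p = 0.0537), over 1.5 times as large. PD-L1 is also carried by B and myeloid cells, whose marker means differed by 0.30 and 0.21, and their part in the Cd274 difference was not tested.

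Pdcd1lg2, the second PD-1 ligand and known mainly from dendritic cells and macrophages, had the lowest signal of the set. It read 5.12, 5.17, 4.99 and 4.94 in null arrays 1 to 4, against 5.15, 5.38, 4.88, 5.45 and 5.38 in wild-type arrays 1 to 5. Wild-type array 3 was the lowest of all 9. The difference of -0.20 (95% interval from -0.45 to 0.061) did not pass (limma adjusted p = 0.491). It was -0.095 with the B cell marker covariate (limma adjusted p = 0.781) and -0.10 with the myeloid one (limma adjusted p = 0.872). Cd274 and Pdcd1lg2 adjoin on chromosome 19, and their within-array difference did not separate the genotypes (-0.27, exact permutation p = 0.246, also 0.246 after adjustment).

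Genes that act with these receptors were read from 5 lists of 77 genes, of which 72 were measured. In all, 10 of the 72 passed by limma, against 2.32% of all genes. Of these, 1 rose (0.428% of all genes) and 9 fell (1.89%), and the median difference was -0.12, beside 0.0023 over all genes. The counts for each list stand against these same shares. Single lists held few calls, and several depended on 1 array or setting.

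**Figure D4:**
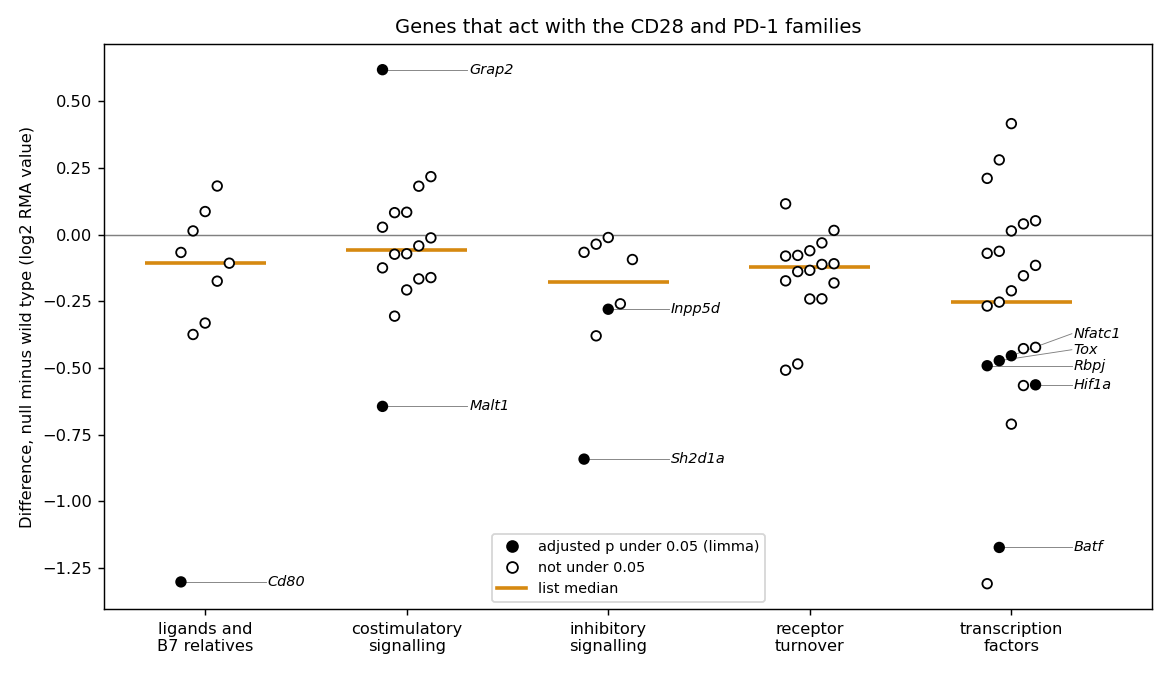
Difference in log2 RMA value (vertical axis, null minus wild type) of each measured gene in 5 lists, with filled points past an adjusted p of 0.05 by limma and a line at the list median. Cd80 and Batf are the filled points furthest below 0 (-1.30 and -1.17), and Grap2 is the one filled point above it.

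Among 9 ligand genes and B7 relatives, 1 fell and 0 rose (median -0.11). That gene was Cd80, a ligand that CD28 and CTLA-4 share and that activated T cells can make. Cd80 read 4.36, 4.78, 4.61 and 3.96 in null arrays 1 to 4, against 5.38, 6.38, 5.25, 5.80 and 5.83 in wild-type arrays 1 to 5. All null values lay below all wild-type values, and null array 4 was under 4.04, where signal may not exceed background. The difference was -1.30 ± 0.23 (SE; limma adjusted p = 0.0183), a size that dim signal makes uncertain. Cd80 did not pass without null array 1 (limma adjusted p = 0.0587), without wild-type array 4 (0.0547) or without wild-type array 5 (0.0513), nor without null arrays 2 and 4 together (0.056). Nor did it pass with the B cell marker mean as a covariate (difference -1.04, limma adjusted p = 0.0645). With the myeloid marker mean, which did not overlap between genotypes, the difference was -0.96 (limma adjusted p = 0.319).

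Of 16 genes of costimulatory signalling, 1 rose and 1 fell (median -0.057). Malt1, the paracaspase that links antigen and CD28 signals to NF-kappaB, read 8.44 ± 0.12 (SD, n = 4) in null and 9.09 ± 0.21 (SD, n = 5) in wild-type samples. It fell 1.56-fold (difference -0.64, limma adjusted p = 0.0151). The difference was -0.61 with the B cell marker mean as a covariate (limma adjusted p = 0.0617) and -0.74 with the myeloid one (0.131), and neither passed. Grap2, which encodes the adaptor GADS, read 8.71 ± 0.23 (SD, n = 4) in null and 8.09 ± 0.17 (SD, n = 5) in wild-type samples and rose 1.54-fold (limma adjusted p = 0.0268). Grap2 did not pass without null array 1, null array 3, or wild-type array 2, 4 or 5 (limma adjusted p from 0.0504 to 0.0734). Its difference of 0.62 was 0.57 with the B cell marker covariate (limma adjusted p = 0.0964) and 0.75 with the myeloid one (0.16).

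In the inhibitory signalling list 2 of 8 genes fell and 0 rose (median -0.18). Sh2d1a encodes SAP, an adaptor that binds SLAM family receptors and has been tied to PD-1 signalling. It read 6.93, 7.13, 7.11 and 7.05 in null arrays 1 to 4, against 7.75, 8.002, 7.77, 8.06 and 7.89 in wild-type arrays 1 to 5. The groups lay far apart relative to their spread, and Sh2d1a fell 1.79-fold (limma adjusted p = 0.00094). Inpp5d, the lipid phosphatase SHIP-1, fell by 0.28 log2 units (limma adjusted p = 0.0487) and lost the call whichever of the 9 arrays was left out (limma adjusted p from 0.0622 to 0.118), nor after quantile normalisation (0.203). The phosphatase genes Ptpn6 (-0.011) and Ptpn11 (-0.38), picked once values were known, stayed above the threshold.

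Of 16 genes for trafficking, ubiquitination or mRNA decay of these receptors, 0 passed by limma over all genes, and the median was -0.12. An unadjusted limma p under 0.05 was found for 2 of the 16 and 14.9% of all genes. The smallest p values were those of Lrba and Trat1. Lrba, which keeps CTLA-4 from lysosomal breakdown, read 7.83 ± 0.21 (SD, n = 4) in null and 8.32 ± 0.17 (SD, n = 5) in wild-type samples (difference -0.49, limma adjusted p = 0.0577). It passed without null array 3 (limma adjusted p = 0.0484) and without dim genes (0.0348). Trat1, an adaptor that brings CTLA-4 to the surface, differed by -0.51 (limma adjusted p = 0.28), and its unadjusted p was 0.0346.

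Transcription factors known to act on these genes held 5 of the 10 calls, all lower, among 23 measured (median -0.25). Batf, the AP-1 family factor of effector T and Treg cells, read 7.08, 7.80, 7.28 and 7.51 in null arrays 1 to 4, against 8.28, 8.98, 8.47, 8.69 and 8.53 in wild-type arrays 1 to 5. It fell 2.25-fold without overlap (difference -1.17, limma adjusted p = 0.0063). With the myeloid marker mean, which did not overlap between genotypes, as a covariate the Batf difference was -1.29 and did not pass (limma adjusted p = 0.0928). Hif1a, the oxygen-regulated factor that can act on Cd274, fell by 0.56 log2 units (limma adjusted p = 0.0109), although a second, dimmer probe set missed the threshold, at -0.28 (limma adjusted p = 0.201 over probe sets). With the myeloid marker covariate the Hif1a difference was -0.66 and did not pass (limma adjusted p = 0.104). Nfatc1, a calcium-regulated factor known to drive Pdcd1, fell by 0.45 log2 units (limma adjusted p = 0.0151). Its difference was -0.465 with the B cell marker covariate (limma adjusted p = 0.0503) and -0.48 with the myeloid one (0.175), and neither passed.

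Rbpj, the DNA-binding partner of Notch, fell by 0.49 log2 units (limma adjusted p = 0.025). It did not pass without null array 1 or wild-type array 1, 2, 4 or 5 (limma adjusted p from 0.0544 to 0.0699). Nor did it pass when its probe sets were averaged (0.0698) or after quantile normalisation (0.0618). Its difference was -0.47 with the B cell marker covariate (limma adjusted p = 0.0869) and -0.59 with the myeloid one (0.158), and neither passed. The fifth factor was Tox, named after its value was seen and known from cells with sustained PD-1, which fell by 0.47 log2 units (limma adjusted p = 0.0283) and was not examined with single arrays left out. Foxp3, which itself acts on Ctla4, differed by 0.014 (limma adjusted p = 0.949).

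Genes with the pattern most like a member were ranked among 10507 candidates. The measure was the root mean square distance between log2 profiles over the 9 arrays, each gene's own mean removed. The genotype difference is part of this distance. A gene near a changed member therefore had to differ in the same direction, and its call is no added evidence. Nearest to Icos were Rbl2 (distance 0.070), Malt1 (0.091) and Trp53i11 (0.10), each of which also fell. Nearest to Btla were Zfas1 (0.074), Rccd1 (0.090) and Samd9l (0.094). Zfas1 and Samd9l rose (a dimmer Zfas1 probe set, at 0.29, did not pass), while Rccd1 did not pass (limma adjusted p = 0.0505). Tpi1 (0.21), Sostdc1 (0.24) and Lag3 (0.24), none of which passed, were nearest to Pdcd1. Distances grow with a member's own spread, so they do not compare between members. The SD over the 9 arrays was 0.704 for Pdcd1, against 0.398 for Icos, 0.299 for Btla and 0.295 for Cd274. For Cd274 the nearest were Pdia6 (0.087), Lrig1 (0.11) and Unc119 (0.11), of which Unc119 fell (limma adjusted p = 0.0264).

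The remaining members varied little, and so did their nearest genes. Cd28 had an SD of 0.087 over the 9 arrays and lay nearest to Trpc2, Ehmt1 and Icam2 (distances 0.032 to 0.043). Ctla4 was nearest to Nup205, Hibadh and Supv3l1, and Pdcd1lg2 to Chsy3, whose second probe set differed in the opposite direction (0.17), Gpr35 and Fkbpl. None of these 9 genes passed by limma. A short distance to a flat gene shows little beyond low spread.

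**Figure D5:**
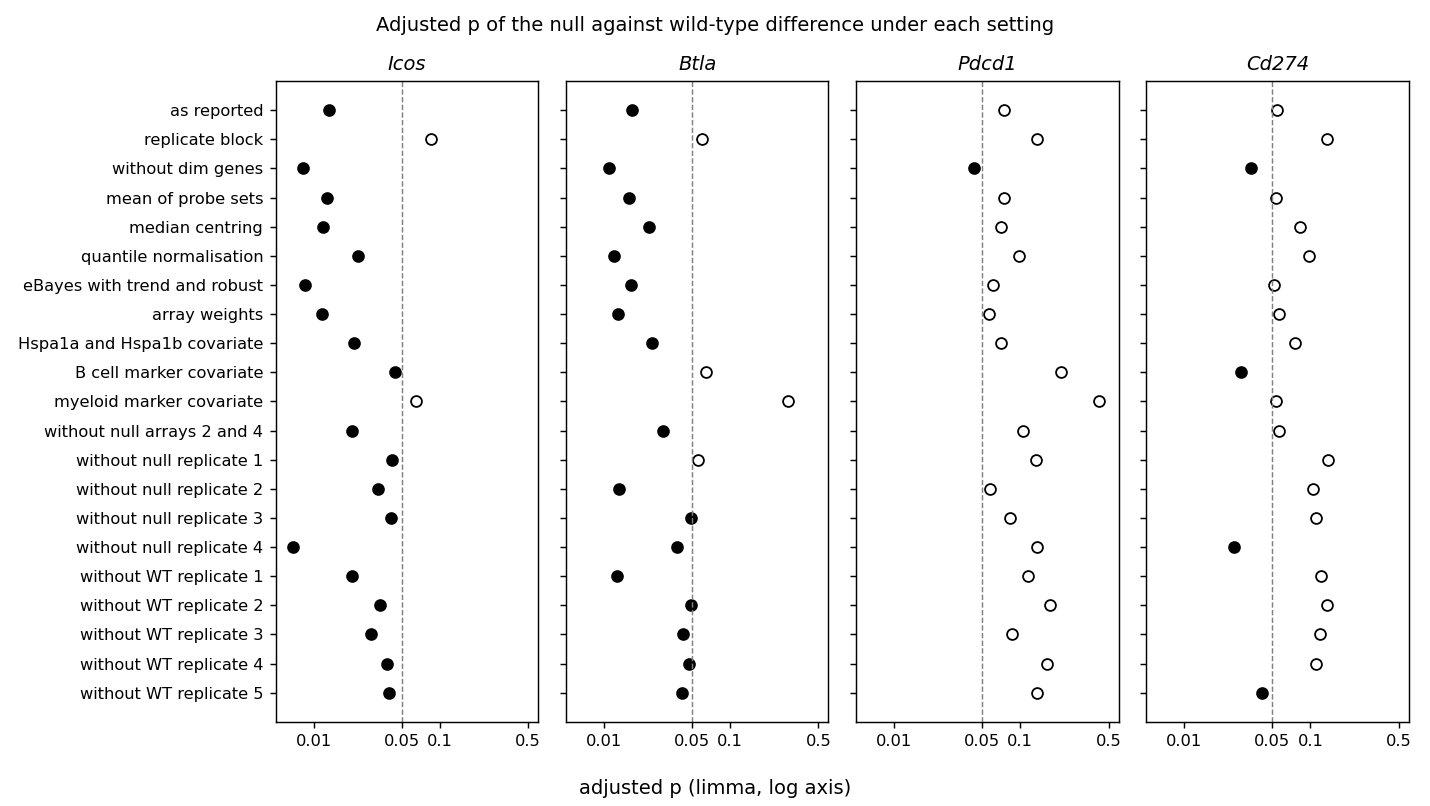
Adjusted p from limma (horizontal log axis, dashed line at 0.05) for Icos, Btla, Pdcd1 and Cd274 as reported and under each alternative setting, with filled points under 0.05. Icos is filled in all but 2 settings (replicate block and myeloid marker covariate), and Pdcd1 is open in all but 1 (without dim genes).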

How the data were processed

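Treg cells of 9 samples were profiled on 1 Affymetrix array each. Per the submitters' processing notes, the authors made the deposited log2 values by RMA (Affymetrix Expression Console 1.1), which subtracts background, brings arrays to a common distribution and condenses probes into probe sets. Scanner values were not used, low signal could not be told from background, and precision is limited by how many arrays there are. Of 41345 probe sets, 23521 had 1 symbol in the platform annotation. The brightest probe set stood for each of 22180 genes.

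Null samples were compared with wild-type samples in limma 3.58.1 (lmFit and eBayes, R 4.3.3), two-sided, with Benjamini-Hochberg adjustment over all genes at 0.05. The procedure was tested on simulated data. Unequal change of 2 genes was tested by exact permutation of samples. Named genes were the members, up to 4 passing genes of each list (or the 2 with the smallest p), Stk4, Stk3, Foxp3, the 2 measured genes on each side of a member and the 3 nearest profiles (among genes with a mean at or above 4.04, without predicted gene models, receptor segments, Xist or Y-linked genes), and others are marked. Members, lists and rules were chosen with earlier results of these data known. Upstream sequences and gene order came from RefSeq (GRCm38.p6), and the array's own genome build is not given in these sources. Plots used Python 3.11.15 and matplotlib 3.10.9.

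Alternatives were a replicate block, a filter on dim genes, averaged probe sets, median centring, quantile normalisation, other eBayes and weight settings, covariates for heat shock genes and for B cell or myeloid markers, and leaving out arrays.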

Additional observations from a re-analysis of the deposited data

Results flagged for a closer look

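Of 52 sets of 4 or 5 arrays examined, 4 held an array far from the rest, and chance alone gives about 1 in 20. Among the members this was Cd28 in wild type, where array 1 read 8.554, against 8.639 to 8.658 in the other 4. Grap2 read 9.053 in null array 1, against 8.574 to 8.621 in the other null arrays. Stk4 read 8.093 in wild-type array 3, against 7.838 to 7.885 in the others. The mean of the 6 Treg and CD4 T cell markers was 9.902 in null array 4, against 10.08 to 10.1 in the other null arrays.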

How the results depend on the processing

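No alternative turned the direction of any of the 7 members. Replicate numbers did not pair samples: deviations of same-numbered arrays correlated between -0.115 and 0.042, and 0 of 4 null arrays correlated best with their own number. With the replicate block 178 genes passed instead of 515, Icos was -0.66 (limma adjusted p = 0.0844), Btla 0.52 (0.06), and within-array differences were -0.77 for Icos and Cd28, -0.55 for Icos and Ctla4 and -1.59 for Pdcd1 and Btla, where the block allows no exact permutation p below 0.125. Ligand and costimulatory lists then held 0 calls, the inhibitory list 1 and transcription factors 2. With the B cell marker covariate 313 genes passed, Btla was 0.43, Cd274 -0.60, and these 4 lists held 0, 0, 1 and 2 calls. With the myeloid marker covariate 144 genes passed, Icos was -0.91, Btla 0.41, Trat1 turned to 0.053, and the lists held 0, 0, 1 and 0. Without dim genes Pdcd1 (-1.05) and Cd274 (-0.47) passed and the turnover list held 1, as with trend and robust settings and without null arrays 2 and 4, where ligands held 0. The inhibitory list held 1 after median centring, quantile normalisation or the heat shock covariate. The cause of these changes was not tested.

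Leaving out single arrays moved Icos between -0.77 and -0.62, Btla between 0.48 and 0.57, Pdcd1 between -1.20 and -0.80, Cd274 between -0.55 and -0.41, Cd28 between 0.078 and 0.14, Ctla4 between -0.19 and -0.0013, and Pdcd1lg2 between -0.29 and -0.14. All genes passing numbered 271 to 594 (271 without wild-type array 4, 594 without null array 2). Calls ranged from 0 to 1 among ligands and turnover genes, 1 to 2 in either signalling list and 3 to 7 among transcription factors. Ctla4 relative to Cd28 ranged between -0.32 and -0.14. Foxp3 ranged between -0.013 and 0.055, below 0 without null array 1 (-0.013) or null array 3 (-0.0063). Of 260 values for the 13 other named genes, 203 kept direction and call, 51 lost the call, 3 gained it and 3 turned. Counts of lists under these settings were added after seeing the data.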

Other observations

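Some transcription factors of effector or follicular T cells, singled out after their values were seen, had large differences that missed the threshold over all genes. Maf, known from follicular and interleukin-10 producing T cells, read 7.65, 8.53, 9.18 and 9.55 in null arrays 1 to 4, against 9.62 to 10.4 in wild-type arrays (difference -1.31, limma adjusted p = 0.0779). That was the brighter of its probe sets (0.0808 when adjusted over probe sets), and the dimmer one, with a difference of -1.20, had a limma adjusted p of 0.0409 over probe sets. Null array 1, lowest for Maf, was also the lowest for Pdcd1, Batf, Prdm1, Irf4, Hif1a, Rbpj and Cd274, among others. It was not the lowest for Icos, Bcl6, Malt1 or Nfatc1. Prdm1 (Blimp-1) read 4.71 to 5.34 in null arrays, against 5.45 to 6.52 in wild-type arrays (difference -0.71, limma adjusted p = 0.122). Bcl6 (-0.57, limma adjusted p = 0.0779) and Irf4 (-0.42, limma adjusted p = 0.0907) overlapped between genotypes.

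Cd28 had the same deposited value, 8.66, in null array 2 and wild-type arrays 2 and 4. Such ties were common, with 3 or more equal values in 32.2% of all genes.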
